A study of Mus musculus with 6 samples.

Results

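The genes of 3 connected families were followed in RNA from orthotopic liver tumors: matrix metalloproteinases (MMPs), ADAMTS proteases and tissue inhibitors of metalloproteinases (TIMPs). Members were the genes whose symbol in the deposited table is Mmp, Adamts or Timp followed by digits and at most 1 letter, with at least 1 raw count in any library, and the ADAMTS-like genes were left out. The rule gave 42 of the 33495 genes with a count, namely 20 MMP, 18 ADAMTS and 4 TIMP genes. Adamts18 matched the symbol rule but stood at 0 counts in all 6 libraries, which allows a level of up to 0.132 to 0.323 CPM (counts scaled to library size), the value of 3 counts in these libraries, for counting error only. A default filter on low counts kept 30 members for testing, 16 MMP, 11 ADAMTS and 3 TIMP genes. The filter asks for enough counts in 3 libraries, so that a member could pass through 1 group alone, and counts over the members kept are descriptions.

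Every tumor came from HCA-1, a hepatocellular carcinoma (HCC) line of the mouse, placed in the livers of male C3H mice (C3H/HeNCrNarl in the study's methods) aged 6 to 8 weeks. The comparison set 3 tumors treated with GOx-DOX-LGP, a nanogel that carries glucose oxidase (GOx) and doxorubicin (DOX), against 3 tumors labelled untreated. Treated tumors carry the numbers 1, 2 and 5 and control tumors the numbers 5, 6 and 7. The labels give intravenous doses on days 18, 19 and 20 but place the transcriptome on day 17 after 3 h of circulation, whereas the supporting methods describe tumors harvested for RNA after the last dose, without naming the sequenced libraries. No group with empty nanogel, GOx alone or DOX alone was analysed here, so that the effects of carrier, enzyme and drug cannot be told apart. The labels number the tumors without stating that each came from its own mouse, and p-values measure the spread between these tumors.

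MMPs and ADAMTS proteases are zinc enzymes that cut the proteins around cells, such as collagens, gelatin, proteoglycans and von Willebrand factor. Most MMPs are secreted as inactive proenzymes and are activated when a propeptide is removed, whereas the membrane-type MMPs are activated inside the cell by furin-like proteases and act at its surface. TIMPs bind the active site of these enzymes and block it, and TIMP-3 also inhibits several ADAM and ADAMTS proteases. In liver tumors these genes are known from invasion, fibrosis and leukocyte traffic, and many cell types other than tumor cells express them.

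Library totals were 15529940 to 18401178 counts, and the members took 0.0368% to 0.309% of them. Controls 6 and 7 stood apart from the other 4 tumors. Alb, the albumin gene of hepatocytes, measured 73800 and 128200 CPM in controls 6 and 7, against 353 CPM in control 5 and 733 to 1893 CPM in treated tumors. Ttr (5460 and 9255 CPM) and Apoa1 (8866 and 14290 CPM), genes of other plasma proteins made by hepatocytes, were high in the same 2 controls and at most 214 and 348 CPM elsewhere. All 16 hepatocyte markers were highest in control 6 or 7, none was at 0, and their summed level ran from 819 to 244400 CPM in the controls and from 1795 to 4341 CPM in treated tumors. Over the 30 members tested, which are genes and not replicates, the log2 CPM had a Pearson's r of 0.962 between controls 6 and 7, 0.577 and 0.686 between these and control 5, and 0.889 to 0.976 between control 5 and the treated tumors. Keratin genes of liver epithelium and tumor were present in all libraries, with 313 to 541 CPM of Krt8 and 336 to 790 CPM of Krt18. The HCC markers Afp (2.25 to 13.2 CPM) and Gpc3 (0.784 to 2.29 CPM) were low throughout. These genes belong to a list of 10 tumor cell markers, whose proliferation genes were not alike in all libraries. Mki67 measured 347, 124 and 15.4 CPM in controls 5, 6 and 7, against 238 to 284 CPM in treated tumors. Top2a measured 317, 80.3 and 10.4 CPM, against 214 to 301 CPM. Of the 10 markers, 2 were highest in control 6 or 7. How much adjacent liver was taken with each tumor is not given in the sources used here, so that treatment and the share of liver tissue cannot be told apart where a difference rests on controls 6 and 7. Control 5 lay with the treated tumors by these measures, and whether its label is right was not tested. In bulk tissue, fewer cells of a type and less RNA per cell cannot be told apart.

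Of the MMP members, 7 lie within 1 stretch of chromosome 9 on the plus strand, in the order Mmp13, Mmp12, Mmp3, Mmp10, Mmp8, Mmp27 and Mmp7, between positions 7272514 and 7699585 of GRCm38. Genes of this cluster are known for induction by inflammatory signals through activator protein 1 (AP-1), the dimer of Fos and Jun proteins. RefSeq windows of GRCm38.p6, which run from 250 bases before to 50 bases after a gene's start, were found for 28 of the 42 members. The AP-1 letters TGAGTCA, searched on both strands, occurred in the windows of 5 of these 28 members, all 5 in the chromosome 9 cluster, and in those of 5.95% of all 27025 genes. No match was found for the cluster genes Mmp8 and Mmp27, and a match is a description of the letters, not a measured binding site. The 120 bases before a RefSeq start are printed because they place the same letters near the start of the 5 genes, with the AP-1 letters or their reverse complement in capitals. They cover chr9:7272394-7272513 for Mmp13, chr9:7347254-7347373 for Mmp12, chr9:7445702-7445821 for Mmp3, chr9:7502222-7502341 for Mmp10 and chr9:7691970-7692089 for Mmp7, all on the plus strand and written 5′ to 3′. Mmp12 has 2 RefSeq windows. The stretch printed for it precedes the start farther downstream and lies inside the GENCODE gene, which begins at 7344381. The other window holds no AP-1 letters. Mmp1b, which is no member here, overlaps 2.17% of the exon length of Mmp12 on the opposite strand.
Mmp13: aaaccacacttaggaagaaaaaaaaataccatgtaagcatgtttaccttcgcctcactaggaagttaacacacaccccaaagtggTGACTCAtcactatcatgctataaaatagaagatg
Mmp12: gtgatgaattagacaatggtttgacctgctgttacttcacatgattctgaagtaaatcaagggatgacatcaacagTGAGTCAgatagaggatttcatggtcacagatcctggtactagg
Mmp3: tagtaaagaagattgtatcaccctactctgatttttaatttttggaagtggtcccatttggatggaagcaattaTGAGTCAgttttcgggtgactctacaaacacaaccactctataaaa
Mmp10: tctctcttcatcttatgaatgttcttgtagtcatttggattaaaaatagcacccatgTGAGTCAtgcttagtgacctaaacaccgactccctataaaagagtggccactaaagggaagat
Mmp7: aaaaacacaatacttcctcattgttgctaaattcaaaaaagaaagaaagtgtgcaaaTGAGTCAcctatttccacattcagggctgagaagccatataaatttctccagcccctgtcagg

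The capitals begin 35 bases before the start in Mmp13, 44 in Mmp12, 46 in Mmp3 and 63 in both Mmp10 and Mmp7. The TATA box letters TATAAA occurred in the windows of 8 members and of 15.7% of all genes, and the GC box letters GGGCGG in those of 17 members and of 38.2% of all genes. The 5 genes with the AP-1 letters were not alike in level, as the values of each show where its role is described.

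Across the whole comparison, edgeR's quasi-likelihood test with Benjamini-Hochberg adjustment gave 0 of 30 members with an adjusted p under 0.05, as it did for 0% of the 15374 genes tested. At an unadjusted p under 0.05, 3 members were higher in treated tumors (Mmp8, Mmp9 and Mmp12), against a background of 2.87% of all genes, and 2 were lower (Mmp15 and Adamts7), against 14.6%. The treated and control values did not overlap for 5 members that were higher (Mmp8, Mmp9, Mmp12, Mmp13 and Timp1), with a background of 8.87%, and for 1 that was lower (Adamts7), with a background of 8.31%. An exact permutation test with 3 tumors against 3 cannot go below p = 0.1. DESeq2, on the same genes, gave 0 members higher, where the background was 0.994%, and 2 lower (Mmp15 and Adamts7), where it was 9.54%. The median log2 fold change, treated minus control, was 0.61 over the 30 members, with 21 positive and 9 negative values, and 0.02 over all genes tested. By family it was 0.77 for MMPs, 0.01 for ADAMTS genes and 1.35 for TIMPs.

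These figures rest on which controls are used. Without control 5, 12 of 33 members tested had an adjusted p under 0.05 and were higher in treated tumors, and 4 were lower, beside backgrounds of 22.2% and 25.5% of all genes. Those higher were Mmp3, Mmp8, Mmp10, Mmp12, Mmp13, Mmp14, Mmp25, Adamts4, Adamts6, Adamts12, Timp1 and Timp2, and those lower Mmp15, Mmp19, Adamts7 and Adamts13. Adamts13 passed the filter of this fit only through controls 6 and 7, where it was high. Mmp3, Mmp8, Mmp10, Mmp25 and Adamts4 had at most 8 reads in control 7 and passed it through the treated tumors, where they were high. For these genes the calls and values without control 5, here and below, are descriptions. With control 5 as the only control, whose spread is then taken as that of the treated tumors, 0 of 34 members had an adjusted p under 0.05 in edgeR, 1 was higher at an unadjusted p under 0.05 (Timp1) and 0 were lower, beside backgrounds of 3.18% and 2.29% of all genes, and the median log2 fold change was 0.23. Without treated tumor 2 the median was 0.17. With the mean log2 CPM of the 16 hepatocyte markers as a covariate it was 0.36, and 0 members had an adjusted p under 0.05 in edgeR. At an unadjusted p under 0.05, 4 were higher (Mmp8, Mmp12, Mmp13 and Timp1) and 1 lower (Adamts7), beside backgrounds of 2.44% and 4.86%. This covariate was 12.4 and 12.9 in controls 6 and 7, 4.59 in control 5 and 5.83 to 7.15 in treated tumors. It mostly separates controls 6 and 7 from the rest, so that this fit also leans on control 5.

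**Figure D1:**
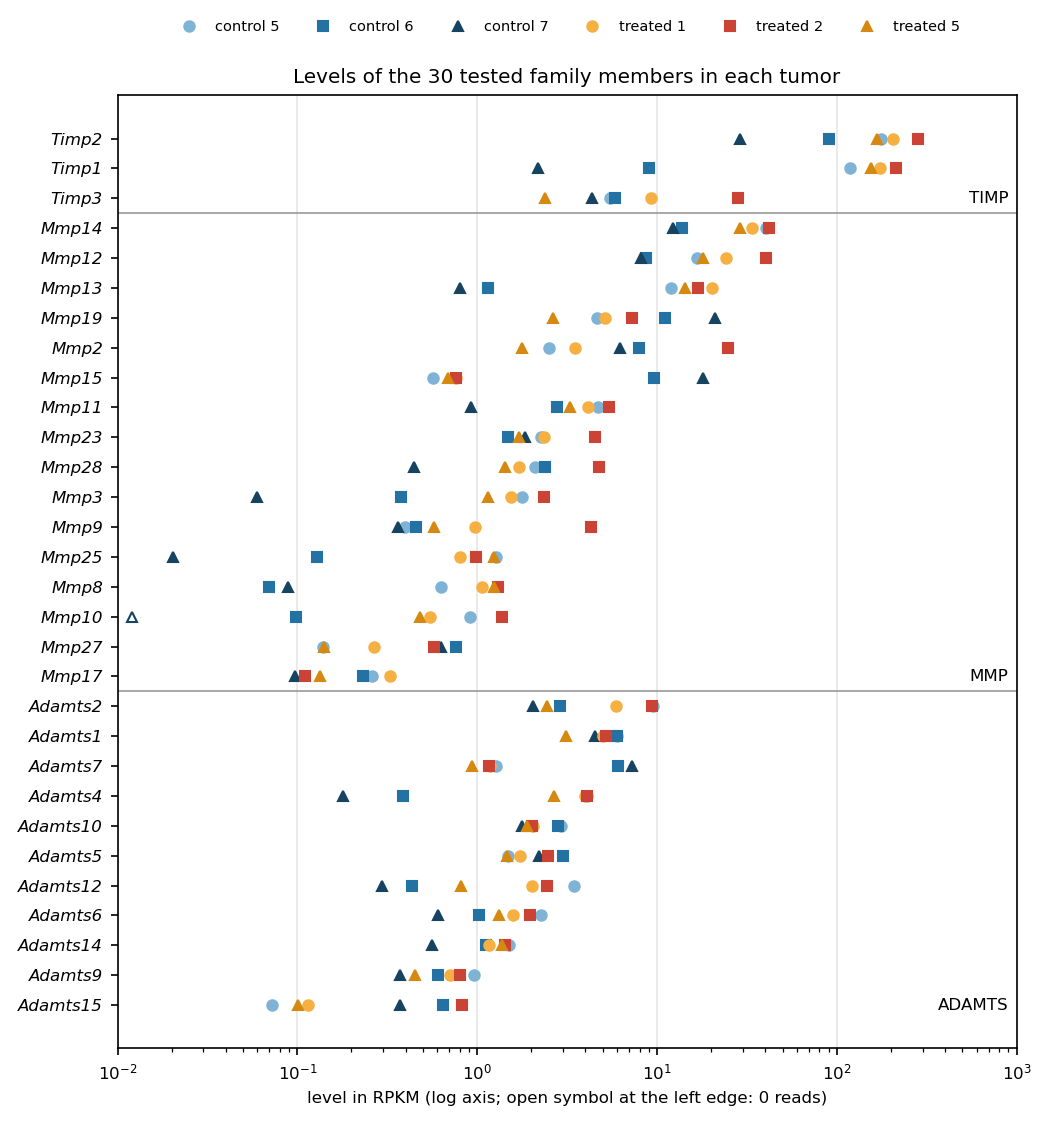
Levels of the 30 tested members in each of the 6 tumors, in RPKM (CPM per kilobase of exon) on a log axis, with 1 symbol per tumor and the families separated by lines. Controls 6 and 7 (dark blue) lie to the left of the other 4 tumors for 14 members and to the right of them for 4, among them Mmp15 and Adamts7.

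The arrangement of the libraries differed from gene to gene. Controls 6 and 7 were both below all other tumors for 14 of the 30 members (46.7%) and for 35.4% of all genes tested, and both above all others for 4 members (13.3%) and for 32.9% of all genes. Control 5 lay within the range of the treated tumors for 12 members (40%, against 45.6% of all genes). Treated tumor 2 held the highest value for 14 members (46.7%, against 16% of all genes) and treated tumor 5 for 0 members (against 17.8%). These shares are descriptions, since the members share their libraries.

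Collagenases cut the triple helix of fibrillar collagen, and the 2 that were kept were both higher in every treated tumor than in any control. Mmp13 (ENSMUSG00000050578), collagenase 3, lies on chromosome 9 from 7272514 to 7283331. It measured 31.9, 3.05 and 2.15 CPM in controls 5, 6 and 7, against 54.2, 45.1 and 38.1 CPM in treated tumors 1, 2 and 5. Control 5 was closer to the treated tumors than to the other controls. The log2 fold change was 1.87 (standard error, SE, 1.03, edgeR adjusted p = 0.372), 4.15 (SE 0.29, edgeR adjusted p = 6.83e-05) without control 5, and 0.54 (SE 0.26) with control 5 as the only control. Mmp8 (chromosome 9, 7558456 to 7568485), the neutrophil collagenase, was low, with 1.54, 0.170 and 0.215 CPM in the controls, against 2.57, 3.18 and 3.02 CPM in treated tumors. In controls 6 and 7 it rested on 2 reads each, under the floor of 3 counts. Its log2 fold change was 2.05 (SE 0.80, edgeR adjusted p = 0.269), 3.92 (SE 0.52, edgeR adjusted p = 0.000991) without control 5 and 0.94 (SE 0.46) against control 5 alone.

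Neutrophil markers were counted beside Mmp8 and Mmp9, which neutrophils store in their granules. Of 12 such markers, 9 were highest in treated tumor 5, and their summed level was 8.93 to 34.2 CPM in the controls, against 26.4 to 87.9 CPM in treated tumors. Ly6g, Camp, Ngp, Elane and Mpo were at 0 in control 6. Their part in the 2 MMP results was not tested.

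Gelatinases cut denatured collagen and type IV collagen of basement membranes. Mmp9 (ENSMUSG00000017737, chromosome 2, 164940780 to 164955850), gelatinase B, measured 1.40, 1.61 and 1.29 CPM in the controls, against 3.46, 15.2 and 2.03 CPM in treated tumors. All 3 controls were alike and treated tumor 2 stood far above the other two treated tumors. The log2 fold change of 2.26 (SE 0.81, edgeR adjusted p = 0.251) was 0.95 (SE 0.44) without treated tumor 2, and 2.31 (SE 1.23) with control 5 as the only control. Mmp2 (chromosome 8, 92827291 to 92853420), gelatinase A, is the gelatinase of fibroblasts and stellate cells. Its values were 8.51, 26.7 and 20.98 CPM in the controls, against 11.9, 83.8 and 5.98 CPM in treated tumors, so that treated tumors held both the highest and the lowest value. For this gene the log2 fold change of 0.86 (SE 1.02, edgeR adjusted p = 0.632) turned to -1.04 (SE 0.61) without treated tumor 2.

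Among the stromelysins, Mmp3 (stromelysin 1) and Mmp10 (stromelysin 2) encode enzymes that cut proteoglycans, fibronectin and other proenzymes. Both genes were low in controls 6 and 7 and alike in control 5 and the treated tumors. Mmp3 measured 3.20, 0.678 and 0.108 CPM in the controls, against 2.77, 4.21 and 2.08 CPM in treated tumors, with a log2 fold change of 1.10 (SE 0.95, edgeR adjusted p = 0.530) that was 2.88 (edgeR adjusted p = 0.0138) without control 5 and -0.07 against control 5 alone. Mmp10 measured 1.58, 0.170 and 0 CPM in the controls, against 0.939, 2.35 and 0.833 CPM in treated tumors, with a log2 fold change of 1.06 (SE 1.11, edgeR adjusted p = 0.594) that was 3.80 (edgeR adjusted p = 0.0204) without control 5 and -0.18 against control 5 alone. In controls 6 and 7 Mmp10 rested on 2 and 0 reads, under the floor of 3 counts, and Mmp3 on 8 and 1 reads. The 2 genes share 8.39% and 8.37% of their stretches of 50 bases with each other, so that a part of their reads is uncertain. Mmp11 (stromelysin 3) lay between 2.58 and 15.0 CPM with overlap between the groups. The counting's use of strand is not given in the sources used here, and Chchd10 overlaps 5.58% of the exon length of Mmp11 on the opposite strand.

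Mmp12, macrophage elastase (ENSMUSG00000049723, chromosome 9, 7344381 to 7369499), was the MMP with the second highest level per exon length and the one with the lowest unadjusted p among the members that were higher. It measured 121.0, 62.6 and 59.3 CPM in the controls, against 174.8, 290.7 and 129.9 CPM in treated tumors. All treated tumors were above control 5, by a margin that was small for treated tumor 5. The log2 fold change was 1.29 (SE 0.44, unadjusted p = 0.0254, edgeR adjusted p = 0.247, DESeq2 adjusted p = 0.0652), 1.74 (SE 0.36, edgeR adjusted p = 0.00685) without control 5, and 0.73 (SE 0.45) with control 5 as the only control. Without treated tumor 2 it was 0.93 (SE 0.44, edgeR adjusted p = 0.462). Of 12 macrophage markers, 10 were highest in treated tumor 2, none was at 0, and their summed level was 918 to 1642 CPM in the controls, against 1588 to 4282 CPM in treated tumors. Their part in the level of Mmp12 was not tested. Mmp7, matrilysin, was not kept by the filter, with 0 to 40 counts per library.

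**Figure D2:**
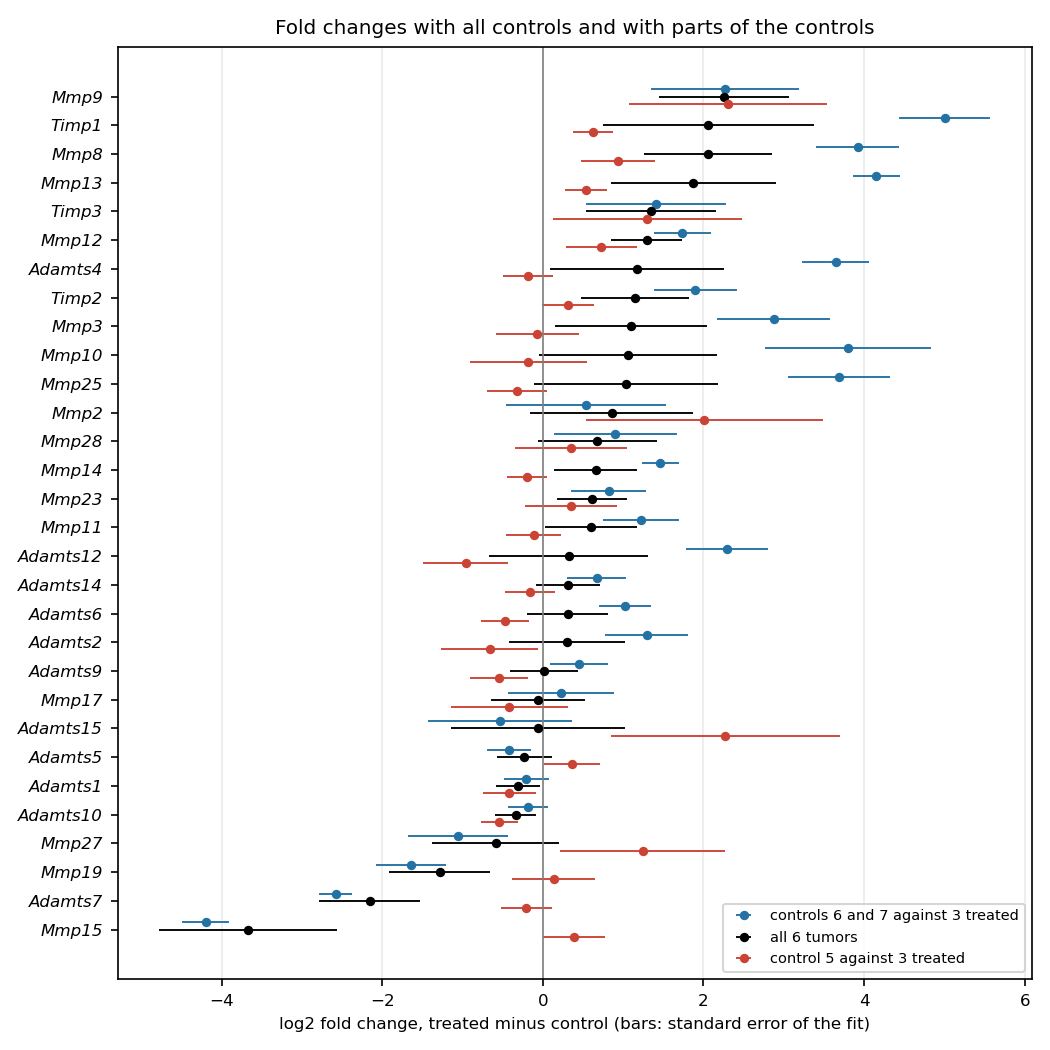
Log2 fold changes of the 30 tested members with their standard errors, treated minus control, from fits with all 6 tumors (black), without control 5 (blue) and with control 5 as the only control (red). For Mmp15, Timp1 and Mmp25 the blue values lie farthest from the red ones, while for Mmp9 the 3 values lie between 2.26 and 2.31.

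The membrane-type MMPs act at the cell surface. Mmp14 (chromosome 14, 54431612 to 54445364), which activates pro-MMP-2, had the highest mean level of all MMPs, 28.5 RPKM. Its levels were 241, 81.9 and 72.8 CPM in the controls, against 202, 250 and 173 CPM in treated tumors. Control 5 lay within the treated range, and the log2 fold change of 0.66 (SE 0.52, edgeR adjusted p = 0.498) was 1.46 (edgeR adjusted p = 0.00222) without control 5 and -0.19 against control 5 alone. Mmp15 (ENSMUSG00000031790, chromosome 8, 95352268 to 95375080), the second membrane-type enzyme, ran the other way. It measured 3.07, 52.2 and 97.0 CPM in the controls, against 4.10, 4.12 and 3.69 CPM in treated tumors, so that controls 6 and 7 were far above and control 5 was below all treated tumors. Its log2 fold change was -3.67 (SE 1.11, unadjusted p = 0.0155, edgeR adjusted p = 0.247, DESeq2 adjusted p = 0.00587). It was -4.19 (SE 0.29, edgeR adjusted p = 6.7e-05) without control 5, -0.67 (SE 0.32, edgeR adjusted p = 0.713) with the hepatocyte covariate, and 0.38 (SE 0.39) against control 5 alone. Mmp25, a membrane-type MMP of leukocytes, measured 6.71, 0.678 and 0.108 CPM in the controls, against 4.25, 5.19 and 6.56 CPM in treated tumors, with a log2 fold change of 1.04 (SE 1.14, edgeR adjusted p = 0.608) that was 3.69 (SE 0.63, edgeR adjusted p = 0.00317) without control 5 and -0.32 against control 5 alone. In controls 6 and 7 Mmp25 rested on 8 and 1 reads, the latter under the floor of 3 counts. Mmp17 lay between 0.646 and 2.18 CPM with overlap, and Mmp16 and Mmp24 had 0 to 7 counts.

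Of the other MMPs, Mmp19 (chromosome 10, 128790910 to 128800824) measured 16.3, 39.4 and 74.1 CPM in the controls, against 18.2, 25.6 and 9.31 CPM in treated tumors. Controls 6 and 7 were highest, as for Mmp15, but control 5 lay within the treated range. For this gene the log2 fold change was -1.29 (SE 0.62, edgeR adjusted p = 0.336), and it was -1.64 (edgeR adjusted p = 0.0181) without control 5, -0.29 with the hepatocyte covariate and 0.13 against control 5 alone. Gm47093 and Tmem198b overlap 28.3% of its exon length on the opposite strand. Mmp28 (epilysin) measured 8.07, 9.24 and 1.72 CPM in the controls, against 6.62, 18.4 and 5.52 CPM in treated tumors. Mmp23 (3.48 to 10.6 CPM) and Mmp27 (0.307 to 1.70 CPM) overlapped between groups, and Mmp21 had 0 to 4 counts.

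Among the ADAMTS genes the proteoglycanases cut aggrecan and versican. Adamts1 (chromosome 16, 85793827 to 85803113) varied little, with 31.8, 31.6 and 23.9 CPM in the controls, against 26.7, 27.5 and 16.4 CPM in treated tumors, and its log2 fold change was -0.31 (SE 0.27, edgeR adjusted p = 0.541). Adamts4 measured 19.7, 1.87 and 0.861 CPM in the controls, against 19.1, 19.6 and 12.8 CPM in treated tumors. Its log2 fold change of 1.17 (SE 1.08, edgeR adjusted p = 0.552) was 3.65 (SE 0.42) without control 5 and -0.19 (SE 0.31) against control 5 alone. Adamts5 (15.9 to 32.2 CPM) and Adamts9 (5.60 to 14.5 CPM) overlapped. Adamts15 was highest in treated tumor 2, with 0.746, 6.70 and 3.87 CPM in the controls, against 1.19, 8.52 and 1.04 CPM in treated tumors. Adamts8 had 1 to 19 counts and Adamts20 at most 3.

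The procollagen N-propeptidases trim procollagen before fibrils form. Adamts2 (chromosome 11, 50602084 to 50807573) had the highest level of its family per exon length, a mean of 5.35 RPKM. It measured 88.4, 26.9 and 19.1 CPM in the controls, against 55.5, 87.1 and 22.9 CPM in treated tumors. Treated tumor 5 lay between controls 6 and 7, and the log2 fold change was 0.30 (SE 0.72, edgeR adjusted p = 0.816), or -0.66 (SE 0.60) against control 5 alone. Adamts14 lay between 2.91 and 7.77 CPM, and Adamts3 had 1 to 16 counts. Col1a1, a substrate of these enzymes, measured 2281, 334 and 223 CPM in the controls, against 1852, 2260 and 806 CPM in treated tumors.

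Adamts7 and Adamts12 cut cartilage oligomeric matrix protein, and they differed in opposite ways between controls 6 and 7 and the rest. Adamts7 (ENSMUSG00000032363, chromosome 9, 90163069 to 90208071) measured 7.99, 38.2 and 45.7 CPM in the controls, against 7.37, 7.30 and 5.88 CPM in treated tumors. All treated tumors were below control 5, but treated tumors 1 and 2 by less than 1 CPM. The log2 fold change was -2.16 (SE 0.63, unadjusted p = 0.0136, edgeR adjusted p = 0.247, DESeq2 adjusted p = 0.0197), -2.58 (edgeR adjusted p = 0.000105) without control 5, -0.77 (SE 0.24) with the hepatocyte covariate, and -0.21 (SE 0.32) against control 5 alone. Adamts12 measured 38.0, 4.75 and 3.23 CPM in the controls, against 22.0, 26.9 and 8.85 CPM in treated tumors. For this gene the log2 fold change was 0.32 (SE 0.99, edgeR adjusted p = 0.857), 2.29 (SE 0.52) without control 5 and -0.96 (SE 0.53) against control 5 alone.

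Adamts13 (chromosome 2, 26973416 to 27009628) encodes the plasma protease that cuts von Willebrand factor and is known from stellate cells of the liver. It was not kept by the filter, with 8, 56 and 77 counts in controls, against 6, 5 and 3 counts in treated tumors, or 0.351, 4.75 and 8.29 CPM against 0.297, 0.245 and 0.156 CPM. Without control 5 it was tested, and its log2 fold change was then -4.72 (SE 0.48, edgeR adjusted p = 0.000271). Adamts13 passed the filter of that fit through controls 6 and 7, where it was high, so that this value is a description. Of its stretches of 50 bases, 3.61% occur in other genes. Among the other ADAMTS genes, Adamts6 lay between 4.74 and 17.8 CPM and Adamts10 between 14.6 and 24.1 CPM, both with overlap. Adamts16, Adamts17 and Adamts19 had at most 19 counts. Control 5 was above all treated tumors for 9 of the 11 ADAMTS genes kept (81.8%) and for 28.4% of all genes tested, but for 1 of 16 MMPs and 0 of 3 TIMPs. Adamts5 and Adamts15 were the 2 exceptions.

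**Figure D3:**
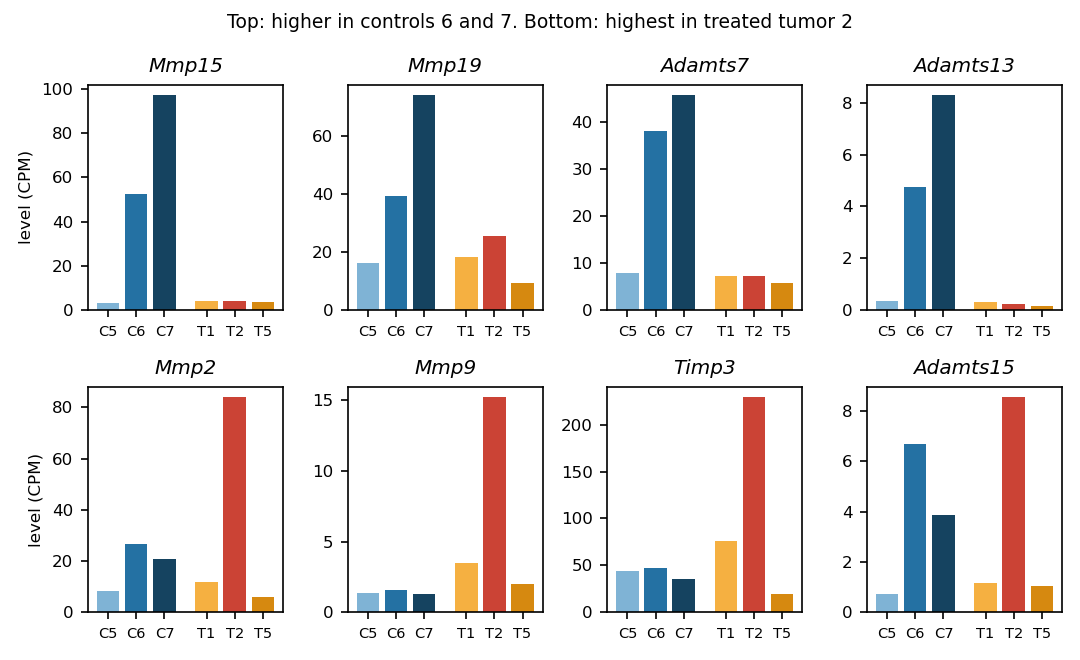
Levels in CPM of 8 members in control tumors (C5, C6, C7) and treated tumors (T1, T2, T5), 1 bar per tumor, each panel with its own axis from 0. In the top row the tallest bars are controls 6 and 7, and in the bottom row treated tumor 2 is the tallest.

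Of the TIMP genes, Timp2 and Timp1 had the highest mean levels of all members, 158.7 and 111.9 RPKM, while Timp3 (9.23 RPKM) lay below Mmp14, Mmp12 and Mmp13, and Timp4 was near 0. Timp1 (ENSMUSG00000001131, chromosome X, 20870166 to 20874735), an inducible secreted inhibitor, measured 105.0, 8.06 and 1.94 CPM in the controls, against 153.9, 190.3 and 137.1 CPM in treated tumors. Control 5 was again near the treated tumors and below all of them. Its log2 fold change was 2.06 (SE 1.31, unadjusted p = 0.166, edgeR adjusted p = 0.424), 5.004 (SE 0.57, adjusted p = 0.000486) without control 5, and 0.63 (SE 0.25, unadjusted p = 0.0434, adjusted p = 0.885) against control 5 alone. Timp2 (chromosome 11, 118301069 to 118355740), which both blocks MMP-2 and helps MMP-14 to activate it, measured 690, 352 and 113 CPM in the controls, against 804, 1099 and 651 CPM in treated tumors, and treated tumor 5 was below control 5. The log2 fold change was 1.14 (SE 0.67, edgeR adjusted p = 0.393), 1.90 (SE 0.52, edgeR adjusted p = 0.0209) without control 5, and 0.32 (SE 0.32) with control 5 as the only control.

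Timp3 (chromosome 10, 86300372 to 86349506), which is held in the matrix, measured 44.4, 47.4 and 35.6 CPM in the controls, against 75.6, 228.8 and 19.4 CPM in treated tumors. The controls were alike, and the treated tumors held both the highest and the lowest value. For this gene the log2 fold change of 1.35 (SE 0.81, edgeR adjusted p = 0.402) was 0.18 (SE 0.60) without treated tumor 2. Syn3 overlaps 21.3% of its exon length on the opposite strand. Timp4 was not kept by the filter, with 5, 8 and 3 counts in the controls, against 4, 3 and 3 counts in treated tumors, or 0.219, 0.678 and 0.323 CPM against 0.198, 0.147 and 0.156 CPM.

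**Figure D4:**
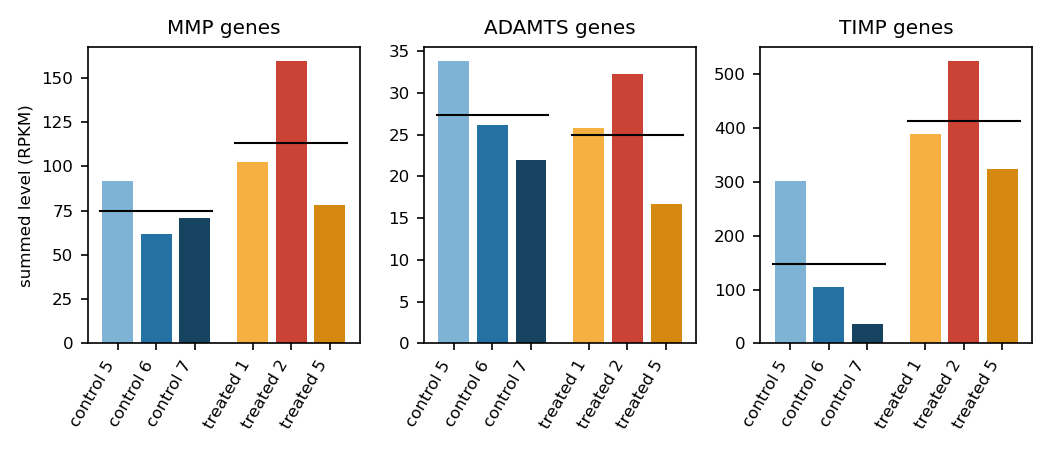
Summed level of each family in RPKM, 1 bar per tumor, with the mean of each group of 3 as a line. The TIMP sum was lower in all controls (35.7 to 300.9 RPKM) than in treated tumors (323.9 to 524.6 RPKM), whereas the ADAMTS and MMP sums overlapped.

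Summed over its members, the MMP family reached 91.7, 61.8 and 71.0 RPKM in the controls, against 102.5, 159.4 and 78.3 RPKM in treated tumors. The ADAMTS sum was 33.8, 26.1 and 22.0 RPKM in the controls, against 25.8, 32.3 and 16.7 RPKM in treated tumors. The TIMP sum was 300.9, 105.5 and 35.7 RPKM in the controls, against 388.9, 524.6 and 323.9 RPKM in treated tumors. Treated means were 1.52, 0.914 and 2.80 times the control means for MMPs, ADAMTS genes and TIMPs. Without control 5 the TIMP ratio was 5.84 and the ADAMTS ratio 1.04. The TIMP ratio was 2.03 without control 7. For MMPs the ratio was 1.21 without treated tumor 2 and 1.75 without treated tumor 5. The sum of MMPs divided by the sum of TIMPs was 0.305 in control 5, 0.586 in control 6 and 1.99 in control 7, and 0.242 to 0.304 in treated tumors. Control 5 was thus next to the treated tumors also in this ratio, which compares RNA levels and not enzyme activity.

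Treated tumor 2 set several of these values. Mmp2 was 9.39 times, Adamts15 7.66 times, Mmp9 5.53 times, Timp3 4.82 times and Mmp28 3.03 times the mean of the other two treated tumors there, and these genes were picked for this pattern after their values were seen. Beside the macrophage markers, 6 of 12 fibroblast and stellate cell markers were highest in treated tumor 2, none of the 12 was at 0, and their summed level was 1614 to 5880 CPM in the controls, against 2301 to 7057 CPM in treated tumors. Ctsk, a collagen-cutting cathepsin, was also highest there (44.2 CPM, against 3.95 and 11.7 CPM in the other treated tumors). Which cells carried these transcripts was not tested.

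Genes that act on or with the 3 families were taken from lists of activators, other inhibitors, substrates, ADAM sheddases and ADAMTS-like proteins, and 0 of the 55 tested had an adjusted p under 0.05 in edgeR. At an unadjusted p under 0.05, 1 was higher and 11 were lower, and DESeq2 called 0 higher and 10 lower. The shares over all genes were 2.87% higher and 14.6% lower at that threshold in edgeR, and 0.994% and 9.54% in DESeq2. Of 13 activators tested, 0 had an unadjusted p under 0.05 and were higher and 5 were lower, and DESeq2 called 4 lower. The largest differences were those of Plg (log2 fold change -5.83, SE 1.86), Klkb1 (-5.52, SE 1.70) and Pcsk6 (-4.46, SE 1.48), which were -6.38, -6.07 and -5.01 without control 5. Plg encodes plasminogen, whose active form plasmin activates several MMPs, and measured 7.63, 2390 and 3479 CPM in the controls, against 45.1, 25.5 and 32.8 CPM in treated tumors. Klkb1, plasma prekallikrein, and Pcsk6, a proprotein convertase, were likewise highest in controls 6 and 7 and lowest in control 5. Plau, the urokinase that forms plasmin, measured 29.5, 46.6 and 13.8 CPM in the controls, against 47.5, 112.7 and 50.7 CPM in treated tumors, higher without overlap, and was picked after its values were seen.

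Of 13 other inhibitors and receptors, 0 were higher and 5 lower at an unadjusted p under 0.05. The shares over all genes at that threshold were 2.87% higher and 14.6% lower. The largest differences were those of Pzp (log2 fold change -5.49, SE 1.78), Mug1 (-5.38, SE 1.70) and Serpinf2 (-5.20, SE 1.65). These encode an alpha-2-macroglobulin relative, a murinoglobulin and alpha-2-antiplasmin, plasma proteins of hepatocytes, and all 3 were highest in controls 6 and 7. Against control 5 alone the 3 genes had log2 fold changes of 1.78, 1.33 and 1.66, and without control 5 of -6.04, -5.93 and -5.75. Of 15 substrates, 0 were higher and 1 was lower at that threshold, namely Vwf, von Willebrand factor (log2 fold change -2.07, SE 0.47, edgeR adjusted p = 0.247, DESeq2 adjusted p = 0.00235). It measured 3.55, 9.50 and 8.93 CPM in the controls, against 2.18, 1.47 and 1.56 CPM in treated tumors, without overlap. Vwf is made by endothelial cells, and it is 1 of 10 endothelial markers, of which 9 were highest in control 6 or 7 and none was at 0. Their summed level was 175 to 545 CPM in controls and 127 to 177 CPM in treated tumors. Of the 10, 6 were lower without overlap, where the share over all genes was 8.31%. DESeq2 called 5 lower, where that share was 9.54%. The part of these markers in the Vwf result was not tested. The proteoglycan genes Acan (log2 fold change 1.38, SE 1.07) and Vcan (1.23, SE 1.37) overlapped. Vcan was at 4.64 (edgeR adjusted p = 0.00039) without control 5.

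Of 7 ADAM sheddases, 1 was higher and 0 were lower at an unadjusted p under 0.05, beside 2.87% and 14.6% of all genes. Adam8, a sheddase of leukocytes, measured 24.1, 15.8 and 3.87 CPM in the controls, against 44.3, 68.6 and 35.3 CPM in treated tumors (log2 fold change 1.75, SE 0.65, edgeR adjusted p = 0.258). Adam15 (1.12, SE 0.63) and Adam19 (0.77, SE 0.54) followed in size of the log2 fold change. Of 7 ADAMTS-like genes, 0 were higher and 0 lower at that threshold, with the largest differences in Papln (-1.81, SE 1.06), Adamtsl5 (1.39, SE 0.76) and Adamtsl4 (0.83, SE 0.45) on the log2 scale. Without control 5 the log2 fold changes were 2.34 for Adam8, 2.05 for Adam15, 1.55 for Adam19, 2.54 for Adamtsl5, 1.31 for Adamtsl4, -2.35 for Papln and -2.37 for Vwf, each with an adjusted p under 0.05 in edgeR.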

How the data were processed

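Raw counts per gene of 6 libraries (RNeasy RNA, KAPA mRNA HyperPrep libraries) were used, as deposited by the authors without normalization or pooling. A deposited signal table holds them after division by library size factors (0.5321 to 1.322) and was used only for gene symbols. The supporting methods name TopHat and HTSeq for these counts, while the submitters' processing notes name Trimmomatic 0.38, HISAT2 2.1.0 and featureCounts 2.0.0. Genome build, annotation and strand use are not given in the sources used here. Positions are those of GENCODE M21 (GRCm38), which held all 42 members.

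Libraries were grouped by their labels. Genes were filtered with filterByExpr, scaled by TMM factors (0.5695 to 1.241) and tested with edgeR 4.0.16 (quasi-likelihood test, Benjamini-Hochberg adjustment over 15374 genes, threshold 0.05) in R 4.3.3. RPKM is CPM divided by merged exon length. Standard errors of the edgeR fits were derived from the test, as the absolute log2 fold change divided by the square root of its F statistic. DESeq2 1.42.0, other scalings and filters, a hepatocyte covariate and fits without single libraries or without controls 6 and 7 were alternatives. The steps were tested on simulated data. Figures were drawn with matplotlib 3.10.9. Members and gene lists were chosen with earlier results of these data known. Full values are given for the TIMP genes and for members with an unadjusted p under 0.05, no overlap or 1 of the 3 highest mean RPKM of a family, and of other lists the 3 largest log2 fold changes are named. Values of Mmp2, Mmp3, Mmp10, Mmp19, Mmp25, Mmp28, Adamts4, Adamts12, Adamts13, Adamts15, Col1a1, Ctsk and Plau were added after they had been seen. Intervals and floors cover counting error only.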

Additional observations from a re-analysis of the deposited data

How the results depend on the processing

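The number of members with an adjusted p under 0.05 was 0 with edgeR under the other scalings, the other filters and the hepatocyte covariate. It was 2 with DESeq2, which called 9.86% of all genes. Leaving out 1 tumor at a time it ranged from 0 to 16, where 16 of 33 is the fit without control 5. That fit called 47.7% of all genes. At an unadjusted p under 0.05 the members higher in treated tumors ranged from 0 to 15 and those lower from 1 to 4 in these fits, and the members without overlap from 6 to 20. Over all genes tested in these fits, 1.01% to 27.2% were higher, 3.17% to 28.3% lower and 19.1% to 72% without overlap. The fits without control 6, control 7 or treated tumor 2 gave 0 members higher, and that without treated tumor 5 gave 1 lower and 12 without overlap. With the hepatocyte covariate 1 member was lower. With control 5 as the only control, 1 was higher, 0 were lower and 17 of 34 did not overlap, where 54.2% of all genes did not. The TIMP ratio without control 5 was 5.84. The ADAMTS ratio changed direction, with 1.24 under library totals, 1.04 without control 5 and 1.06 without treated tumor 5. It was 0.779 to 0.898 without any other single tumor. The cause of these shifts was not tested.

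Scaling by library totals moved the median log2 fold change of all genes to 0.51 and that of the members to 0.92, or 0.41 above all genes, while the upper quartile gave 0.19 and 0.74, or 0.55 above. With totals Adamts1 turned to 0.17. With the hepatocyte covariate the log2 fold change turned to -0.27 for Adamts2, -0.20 for Adamts12, 0.18 for Plg and 0.16 for Pcsk6. Leaving out 1 tumor, that of Adamts12 ranged from -0.16 (without control 7; -0.11 without control 6) to 2.29, that of Adamts2 from -0.19 (without treated tumor 2; -0.07 without control 7) to 1.29, and that of Mmp2 from -1.04 (without treated tumor 2) to 1.40. With control 5 as the only control it turned to -0.19 for Mmp14, 0.38 for Mmp15, 0.13 for Mmp19, -0.07 for Mmp3, -0.18 for Mmp10, -0.32 for Mmp25, -0.66 for Adamts2, -0.19 for Adamts4, -0.96 for Adamts12, 2.19 for Plg, 1.62 for Klkb1, 1.76 for Pcsk6, 1.78 for Pzp, 1.33 for Mug1, 1.66 for Serpinf2, -0.25 for Vcan, -0.06 for Adam19 and 0.90 for Papln. The default filter removed 12 members, and 42 were tested without it, with 0 called. No paired analysis was run, because the labels state no pairing between treated and control tumors.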
